A study of Macaca fascicularis with 4 samples.

Results

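Sclerotome cells of the E24 cynomolgus monkey (Macaca fascicularis) embryo were taken as the cell barcodes with at least 1 UMI of PAX1 and at least 1 UMI of PAX9 or NKX3-2. A UMI, or unique molecular identifier, counts 1 captured transcript. The rule found 289 of the 10639 barcodes of the E24 library (2.72%, exact binomial 95% interval 2.42 to 3.04), and the series of 4 libraries holds 27626 barcodes. Single cells were captured in droplets and read from the 3′ ends of transcripts. The libraries, 1 per age, are named by embryonic day (E24, E28, E31 and E37), and their labels set these ages at Carnegie stages 11, 13, 14 and 18. The E24 library came from embryos trimmed of yolk sac, amnion, heart and the tissue in front of it, and of the growth zone at the tail. The E28 and E31 libraries were made from the region of the urogenital ridge, in which mesonephros, coelomic epithelium and mesentery were kept, and the E37 library mainly from gonadal ridge. No treatment, transgene or mutation is named in the labels of any library. More than 1 embryo went into the E24 library by its label, and since its barcodes all end in the same suffix it counted as 1 sample. With 1 library per stage there is no replicate and no test. Levels are given as CPM, the UMIs of a gene scaled to 1000000 UMIs for the whole group. Every ratio compares 2 such levels, and its exact 95% interval covers counting error only.

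The sclerotome is the ventral part of the somite, the segmental block of paraxial mesoderm beside the neural tube. Sonic hedgehog from notochord and floor plate induces PAX1 and PAX9 there, the cells leave the epithelial somite and become mesenchyme, and they later form the cartilage of vertebrae and ribs. The dorsal part of the somite stays epithelial as the dermomyotome, which expresses PAX3 and gives muscle and dermis.

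The 3 genes of the rule are transcription factors: PAX1 and PAX9 are paired-box factors of the sclerotome, and NKX3-2 is a homeobox factor downstream of them that prepares the cells for cartilage formation. Among the members, 99 barcodes held UMIs of all 3 genes, 121 held PAX1 and PAX9 without NKX3-2, and 69 held PAX1 and NKX3-2 without PAX9. PAX1 counts per member ran from 1 to 11 with a median of 2, and 137 members held exactly 1 PAX1 UMI. The highest count in a member was 7 for PAX9 and 7 for NKX3-2, each with a median of 1. The members held 605 of the 852 PAX1 UMIs of the library (71.0%), 51.0% of its PAX9 UMIs and 41.5% of its NKX3-2 UMIs. These values chose the members and describe them only.

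Barcodes just outside the threshold ranged from near the members to near the rest of the library. Just inside it stood 61 members with 1 PAX1 UMI and 1 UMI of PAX9 or NKX3-2, and FOXC2 was at 163 CPM and SOX9 at 61.6 in them. Just outside stood 160 barcodes with PAX1 alone, where FOXC2 was at 156 and SOX9 at 61.7, and 55 barcodes with PAX9 and NKX3-2 but no PAX1, where FOXC2 was at 191 and SOX9 at 67.4. PTCH1, the hedgehog receptor, was at 145 in the 61 members, 80.0 in the PAX1 barcodes and 173 in those with PAX9 and NKX3-2. The 201 barcodes with PAX9 alone had FOXC2 at 132 and SOX9 at 33.3. The 237 with NKX3-2 alone had FOXC2 at 75.6, SOX9 at 21.5 and FOXF1, a factor of gut mesoderm, at 55.6, while FOXF1 had 0 UMIs in the 61 members. In the 9697 barcodes with none of the 3 genes FOXC2 was at 36.8 and SOX9 at 15.0. Of the barcodes outside the rule, those with PAX1 alone and those with PAX9 and NKX3-2 had FOXC2 and SOX9 levels near those just inside it, so the members need not be all cells of the kind. The median member held 11610 UMIs and 3362 genes, against 9949.5 UMIs and 3067 genes in the other 10350 barcodes. With every barcode thinned to 3500 UMIs before the rule was applied, 86 E24 barcodes met it.

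Barcode depth in the E24 library ran from 3736 to 57569 UMIs, and total depth of the 4 libraries from 40243286 to 115332663 UMIs. The E24 library shared 74, 111 and 71 barcode sequences with E28, E31 and E37, of which 2, 3 and 1 were members. No doublet caller was run, and markers of other cell types in the members were counted instead. At least 2 endothelial markers were found in 4 members (1.38%, against 6.43% of the other barcodes), at least 2 of the neural tube in 19 (6.57% against 23.9%), at least 2 of the neural crest in 10 (3.46% against 9.01%), at least 2 of the notochord in 3 (1.04% against 8.83%) and at least 2 of the surface ectoderm in 36 (12.5% against 56.2%). At least 2 blood markers were found in 124 members (42.9% against 40.5%), at least 2 of dermomyotome and myotome in 47 (16.3% against 14.7%) and at least 2 of pharyngeal endoderm in 35 (12.1% against 16.8%). For endoderm, presomitic, lateral plate and intermediate mesoderm the counts were 10, 15, 17 and 1 members. The highest globin shares were 20.9% and 19.9% of a member's UMIs, and these 2 members hold 11429 of the 11880 HBZ and HBE1 UMIs of all members, while the third-ranked member held 0.0774%. The summed level of the 11 blood markers ran from 0 to 210994 CPM in single members with a median of 145, against a median of 162 elsewhere. Markers at 0 UMIs in all members included SOX3, SOX10, FOXD3, EMCN, PTPRC, SOX17, CDH1, HNF4A, KRT5, NOTO, SHH, MSGN1, TBX4, TBX20, PAX2 and EMX2, and 4 of the 15 dermomyotome and myotome genes (MYF5, MYOD1, LBX1 and EN1). These counts do not separate a droplet with more than 1 cell from a single cell. In all, 152 members held 2 or more markers of at least one of neural tube, neural crest, endothelium, blood, endoderm, surface ectoderm and notochord. Only these classes are meant below by markers of another class, and the 124 members with blood markers are among the 152. Without the 152, several genes low in the members, such as MSX1, CRABP2, DLL1, BMP4 and HOXA9, were lower still (log2 ratios to the other barcodes of -5.41, -3.78, -3.28, -2.94 and -3.22, against -3.18, -2.60, -2.10, -1.73 and -1.75 with all members). Only the members were filtered in this way, and the other barcodes kept those with such markers.

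The members stood apart from the rest of the library first in regulators of paraxial mesenchyme. Of 11338 genes with enough UMIs to compare, 136 (1.2%) were 2-fold or more higher in the members and 1070 (9.44%) 2-fold or more lower. Since the rule chose the members on this same contrast, these counts describe them. Among 17 listed regulators of sclerotome and mesenchyme 16 could be compared, 7 were 2-fold or more higher and 4 were 2-fold or more lower, with a median log2 ratio of 0.92 against -0.04 for all genes.

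FOXC2 and FOXC1, forkhead factors of somite formation, were at 193 and 99.3 CPM in the members and at 42.5 and 22.8 in the other barcodes. The ratios were 4.55 (4.19 to 4.93) and 4.35 (3.88 to 4.86). FOXC2 was found in 83.0% of members and 19.8% of the other barcodes, and in 35.2% of 233 barcodes picked as endothelium by CDH5 and PECAM1, a cell type that also uses FOXC genes (median depth 10632 UMIs). After thinning to 3500 UMIs these shares were 48.8%, 10.6% and 17.6%.

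TWIST1, a basic helix-loop-helix factor of mesenchyme, was at 141 CPM in the members and 32.6 elsewhere, a ratio of 4.33 (3.94 to 4.75). Its share was 75.4% of members, 21.0% of the other barcodes and 3.86% of the endothelial barcodes (39.8%, 10.6% and 1.29% after thinning). MEOX2, a homeobox factor of the somite, was at 94.8 against 13.2, or 7.20-fold (6.38 to 8.11), while its relative MEOX1 was at 68.9 against 34.6, or 1.99-fold (1.75 to 2.27). TCF15, also called paraxis and needed for the somite to become epithelial, was at 39.1 against 13.4, or 2.91-fold (2.43 to 3.46), and 101 of the 289 members held a UMI of it.

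The 4 regulators on the low side are genes of limb, lateral plate or neural crest mesenchyme: PRRX1 at 4.46 against 29.0 CPM, MSX1 at 3.35 against 30.4, MSX2 at 1.95 against 11.8 and SNAI2 at 25.1 against 56.6. SNAI1, the other snail factor of epithelium-to-mesenchyme transition, was at 39.9 in the members and 19.0 elsewhere (2.1-fold, 1.76 to 2.48). The mesenchymal regulators of the members were thus TWIST1, SNAI1 and the FOXC genes, with PRRX1 and the MSX genes near the low end.

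**Figure D1:**
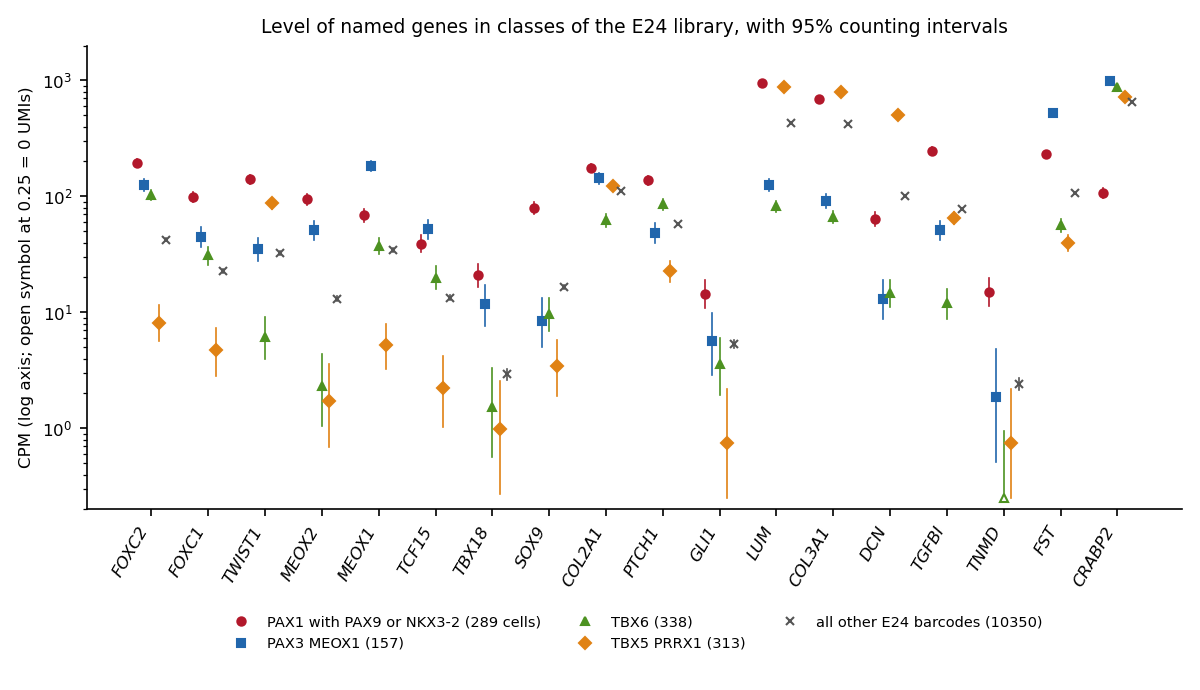
Level of named genes in CPM (log axis) in the 289 members, 3 classes of E24 cells chosen by other marker genes, and all other E24 barcodes, with exact Poisson 95% intervals as lines; open symbols mark 0 UMIs. FOXC1, FOXC2, MEOX2, SOX9 and TBX18 have their highest points in the members, whereas LUM and COL3A1 reach similar heights in the TBX5 PRRX1 cells and CRABP2 is lowest in the members.

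The genes with the largest ratios by the interval bound nearest 1 included MEOX2, given above, and several secreted or matrix proteins. DPT, which encodes dermatopontin, a small matrix protein that binds decorin, was at 42.4 CPM in the members and 2.76 in the other barcodes, 15.4-fold (12.6 to 18.7), from 102 members. Against only the barcodes without any rule gene its log2 ratio was 5.24 in place of 3.94. TNFAIP6, a hyaluronan-binding protein, was at 37.7 against 3.67 (10.3-fold, 8.39 to 12.5). TNMD, which encodes tenomodulin of tendon cells, was at 15.1 against 2.41 (6.26-fold, 4.58 to 8.41), and this log2 ratio of 2.65 became 1.08 when the rule was applied to thinned counts. MOXD1, a dopamine beta-hydroxylase homologue, was at 97.9 against 11.3 (8.63-fold, 7.64 to 9.72). RGMB, a BMP co-receptor of the repulsive guidance family, was at 108 against 17.2 (6.29-fold, 5.62 to 7.01). TBX18, a T-box factor that marks the anterior part of each somite, was at 20.9 against 2.92 (7.17-fold, 5.5 to 9.24). SMCO3, SCG3 and B4GALNT1 stood at 7.62-fold, 5.96-fold and 6.56-fold. None of these genes drew more than 25% of its UMIs from 1 barcode.

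Genes of the hedgehog pathway were read in order from ligand to target. SHH had 0 UMIs in the members, where 0 allows up to 0.837 CPM, and the library held 201 SHH UMIs in 114 barcodes, of which 71.1% were in the 8.57% of barcodes with FOXA2 or T, genes of floor plate, endoderm and notochord. IHH and DHH had 3 and 1 UMIs in the members. PTCH1, the hedgehog receptor and itself a hedgehog target, was at 137 CPM against 58.1 (2.36-fold, 2.15 to 2.59). It was found in 67.8% of members, 34.7% of the other barcodes and 33.0% of the endothelial barcodes (37.4%, 16.3% and 12.9% after thinning). SMO, the transducer, was at 40.4 against 42.8, and the co-receptor CDON at 6.14 against 12.4.

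Of 8 receptors and transducers compared, 2 were 2-fold or more higher and 1 was 2-fold or more lower. The transcription factor GLI1, a direct readout of the pathway, was at 14.5 against 5.36 (2.71-fold, 2.0 to 3.6) and the antagonist HHIP at 9.21 against 3.73 (2.47-fold, 1.68 to 3.52). Of 11 listed targets and effectors 9 could be compared, 4 were 2-fold or more higher (GLI1, HHIP, FOXD2 and FOXF2) and 3 were 2-fold or more lower (FOXF1, CCND1 and BCL2), with a median log2 ratio of 0.42. FOXF2 rested on 21 UMIs in the members, and without the barcode richest in it its ratio was 1.76. FOXF1, a forkhead target in gut mesoderm, was at 4.74 against 13.5, and with the rule on thinned counts its log2 ratio of -1.51 became -0.69.

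The other signalling lists lay mainly on the low side. Of 18 genes of the BMP pathway, 2 were 2-fold or more higher and 10 were 2-fold or more lower (median log2 ratio -1.17). The ligand BMP4 was at 16.5 CPM against 54.8, the pseudoreceptor BAMBI at 17.3 against 112, and the BMP-responsive inhibitors ID1 and ID2 at 105 against 261 and 114 against 383. On the high side were FST, which encodes the activin and BMP antagonist follistatin (230 against 106, 2.17-fold, 2.02 to 2.33), and the receptor BMPR1B (23.4 against 6.55, 3.58-fold, 2.82 to 4.49), known for its part in limb cartilage.

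Of the 24 genes compared for FGF, WNT and retinoic acid, 1 was 2-fold or more higher and 8 were 2-fold or more lower, with a median of -0.73. ALDH1A2, the enzyme that makes retinoic acid in somites, was the one on the high side at 43.0 against 19.3 (2.23-fold, 1.88 to 2.62). The retinoic acid binding proteins CRABP2 and CRABP1 were at 108 against 656 and at 6.69 against 37.9. CRABP2 UMIs were found in 39.1% of members and 83.9% of the other barcodes, and in 30.9% of the endothelial barcodes (18%, 70.8% and 15.0% after thinning). DUSP6, a phosphatase induced by FGF signalling, was at 298 against 162, below the 2-fold line. In the NOTCH and segmentation list 1 of 13 genes was 2-fold or more higher and 4 were 2-fold or more lower. HEYL, a NOTCH target expressed in somites, was at 21.5 against 4.96 (4.33-fold, 3.37 to 5.51), and the ligand DLL1 at 8.09 against 34.8. DLL1 had 29 UMIs in the members, and its log2 ratio of -2.10 became -5.86 with the rule on thinned counts. That value is set by a pseudocount of 0.5 UMI, since the members so chosen held no DLL1 UMI. Of 7 compared genes that differ between the anterior and posterior parts of a somite, TBX18 and SEMA3F, a secreted guidance cue, were 2-fold or more higher.

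Cartilage genes stood on both sides of the rest of the library. SOX9, the master regulator of cartilage, was at 79.2 CPM in the members and 16.6 elsewhere (4.78-fold, 4.21 to 5.42), and was found in 57.1% of members, 11% of the other barcodes and 2.58% of the endothelial barcodes (23.9%, 4.73% and 0% after thinning). Its partner SOX5 was at 47.1 against 15.2 (3.10-fold, 2.63 to 3.64) and the remaining gene of the trio, SOX6, at 20.6 against 37.6, a log2 ratio of -0.87 that passed 2-fold, at -1.53, with the rule on thinned counts. COL9A1, a cartilage collagen under SOX9 control, was at 19.2 against 5.91 (3.26-fold, 2.51 to 4.18), and COL2A1, the main cartilage collagen, at 177 against 111 (1.59-fold, 1.47 to 1.72). HAPLN1, which links hyaluronan to aggrecan, was lower at 46.3 against 227. The later cartilage genes ACAN, MATN1, COMP and the bone regulator RUNX2 had 4, 2, 0 and 5 UMIs in the 3584928 UMIs of the members. Across the list, 3 of 12 genes compared were 2-fold or more higher and 2 were 2-fold or more lower. In the tendon list TNMD and TGFBI, a matrix protein induced by TGF-beta at 248 against 77.3 (3.21-fold, 2.99 to 3.44), were the 2 on the high side, ETV4 was on the low side, and MKX had 1 UMI.

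The extracellular matrix was one of the lists with a positive median, 0.39, with 5 of 25 genes 2-fold or more higher and 6 of 25 2-fold or more lower. LUM, a small leucine-rich proteoglycan that shapes collagen fibrils, was at 954 CPM against 433 (2.20-fold, 2.13 to 2.28). Its counts per member had a median of 6 and a maximum of 73, and 83.4% of members, 37.0% of the other barcodes and 15.9% of the endothelial barcodes held one (71.3%, 27.1% and 7.73% after thinning). HAS2, the hyaluronan synthase, was at 81.7 against 25.3 (3.23-fold), COL5A2 at 209 against 94.6 (2.21-fold), BGN at 27.3 against 12.1 (2.26-fold) and FBN2 at 198 against 95.8 (2.07-fold). COL3A1, a fibrillar collagen of loose tissue, was at 695 against 417 (1.67-fold, 1.60 to 1.73). The low side held COL1A1 at 48.8 against 139, COL6A1 at 25.7 against 75.8 and FN1, fibronectin, at 97.4 against 202. Among adhesion genes the mesenchymal cadherin CDH11 was at 162 against 68.5 (2.36-fold, 2.16 to 2.56) and the epithelial cadherin CDH3 at 5.30 against 48.6.

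**Figure D2:**
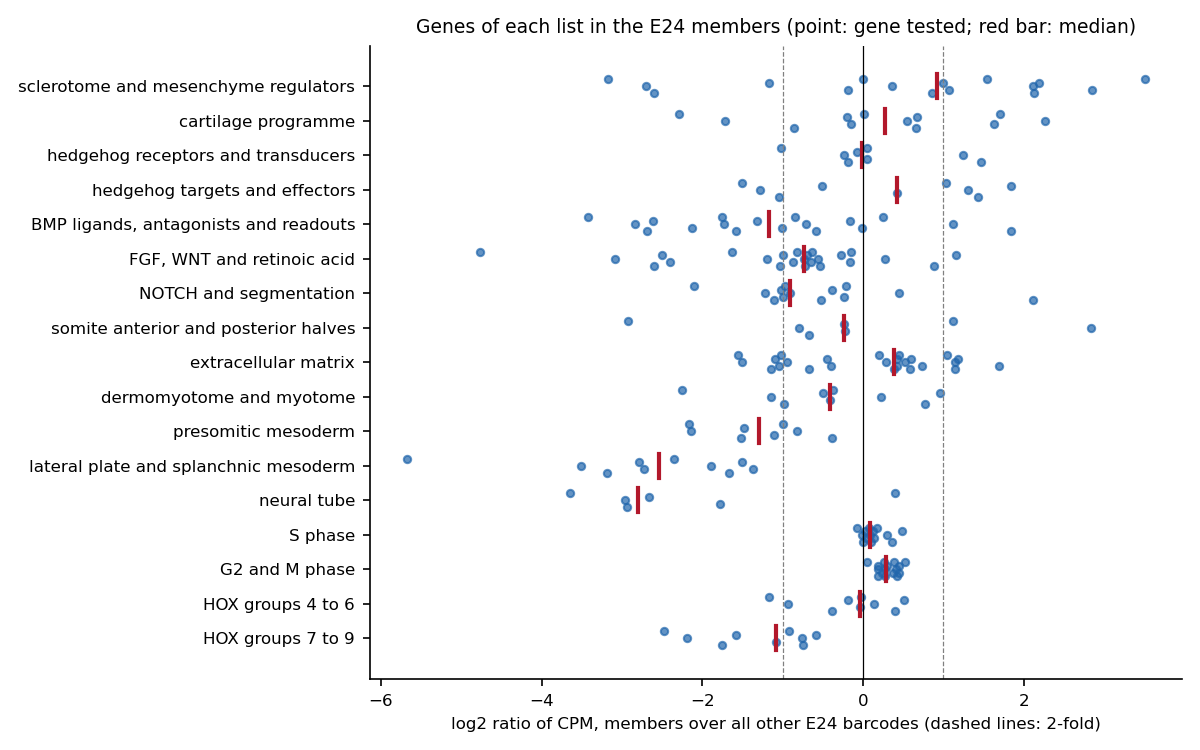
Log2 ratio of CPM in the 289 members over the other 10350 E24 barcodes for each gene that could be compared (points), by list, with the list's median as a red bar and dashed lines at 2-fold. The medians lie at 0.92 for sclerotome and mesenchyme regulators, 0.39 for extracellular matrix and -1.17 for the BMP list, and the S phase and G2 and M phase genes stay inside the dashed lines.

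Several lists for other cell types were on the low side: 10 of 10 compared genes of lateral plate mesoderm, 5 of 5 of intermediate mesoderm, 7 of 7 of endothelium, 6 of 6 of endoderm, 6 of 6 of surface ectoderm and 5 of 6 of neural tube were 2-fold or more lower, beside 9.44% of all genes. This does not hold for every such list by barcode shares: at least 2 blood markers were in 42.9% of members and 40.5% of the other barcodes. The genes lowest by the interval bound nearest 1 included liver and yolk sac genes (RBP4 at 2.23 against 69.2 CPM, FGB at 4.74 against 119, AFP at 6.97 against 113) and kidney genes (LHX1 at 0.558 against 23.2). EMX2, a factor of the urogenital ridge, and RNASE1, an endothelial ribonuclease, had 0 UMIs in the members and were at least 17.6-fold and at least 18.2-fold lower on the floor of 3 UMIs. Of 9 compared dermomyotome and myotome genes none was 2-fold or more higher and 2 were 2-fold or more lower. PAX3, the factor of the dorsal somite, had 3 UMIs in 3 members.

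Cell cycle genes were close to the rest of the library. None of 14 S phase genes and none of 16 genes of G2 and M phase passed 2-fold in either direction, with medians of 0.09 and 0.29 and TOP2A at 1.31-fold. Of 10 genes induced by dissociation stress 4 were 2-fold or more lower, with FOS at 22.6 against 71.6 CPM and ATF3 at 5.86 against 19.8.

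The nearest relatives of the members were taken as the 157 E24 barcodes with UMIs of PAX3 and MEOX1 but none of the 3 rule genes (median depth 12549 UMIs). They stand for paraxial cells without the sclerotome genes, and dermomyotome cells were not separated from newly formed somite cells. Genes of the forming somite border were found in them, with RIPPLY1 at 176 CPM from 49 barcodes and MESP2 at 72.2. Their lack of PAX1, PAX9 and NKX3-2 and their PAX3 and MEOX1 are set by this choice. Of 9654 genes compared, 309 (3.2%) were 2-fold or more higher in the members and 271 (2.81%) 2-fold or more lower. Of 25 matrix genes 8 were 2-fold or more higher and 0 lower, of 10 cartilage genes 6 were higher and 2 lower, of 9 dermomyotome and myotome genes 0 were higher and 7 lower, and of 14 NOTCH and segmentation genes 2 were higher and 8 lower.

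LUM was at 954 CPM in the members and 125 in the PAX3 MEOX1 cells (7.62-fold, 6.72 to 8.66), and COL3A1 at 695 and 91.5 (7.60-fold, 6.56 to 8.83). CXCL12, a chemokine that mesenchyme secretes, was at 200 and 24.9 (8.03-fold, 6.07 to 10.8), SOX9 at 79.2 and 8.44 (9.38-fold, 5.83 to 16.1) and SMCO3 at 58.0 and 3.75 (15.5-fold, 7.70 to 36.3). DPT and CPED1 had 1 UMI each in the PAX3 MEOX1 cells, against 152 and 66 in the members, so their ratios of 90.4 and 39.3 have intervals that start at 16 and 6.80. The cartilage genes on the low side included HAPLN1, at 46.3 and 196, and COL11A2, at 6.69 and 35.6. TWIST1 stood at 141 and 35.2 (4.01-fold, 3.14 to 5.18), FOXC1 at 99.3 and 45.0 (2.21-fold), MEOX2 at 94.8 and 51.1 (1.86-fold), FOXC2 at 193 and 126 (1.54-fold) and COL2A1 at 177 and 143 (1.24-fold). HBZ and HBE1 were also far higher in the members, and this rested on the 2 globin-rich members in this and the next 2 comparisons.

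Hedgehog genes separated these somite cells in both directions. PTCH1 was at 137 CPM in the members and 48.8 in the PAX3 MEOX1 cells (2.81-fold, 2.27 to 3.51), GLI1 at 14.5 and 5.63 (2.58-fold, 1.36 to 5.30) and HHIP at 9.21 and 3.75 (2.45-fold, 1.11 to 6.15). The co-receptors GAS1, BOC and CDON, which hedgehog signalling is known to repress, were at 58.9 and 136, at 17.0 and 41.3 and at 6.14 and 21.6. Of 7 targets and effectors 4 were 2-fold or more higher and 1 was 2-fold or more lower, and of 8 receptors and transducers 2 were 2-fold or more higher and 3 were 2-fold or more lower.

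The dermomyotome and myotome genes on the low side include PAX3, which chose these cells. DMRT2, a factor of the dermomyotome, was at 4.46 in the members and 79.3 in the PAX3 MEOX1 cells, and EYA1 at 9.48 and 36.6. The muscle factors MYF6 and MYOG were at 2.23 and 15.5 and at 2.23 and 10.8, and 1 barcode of the PAX3 MEOX1 cells held most MYOG UMIs, since the ratio of 0.207 was 0.592 without it. RIPPLY1 and MESP2, genes of the forming somite border, were at 14.8 and 176 and at 4.46 and 72.2, with ratios of 0.0841 and 0.0618 that were 0.115 and 0.112 without the top barcode of each. CRABP2 was at 108 and 990 (0.109, 0.0976 to 0.122), DLL1 at 8.09 and 58.6 and the BMP antagonist GREM1 at 2.51 and 33.8. FST was higher in the PAX3 MEOX1 cells at 521 against 230, so that in the members the same gene stood above the rest of the library and below these cells. TCF15 was at 39.1 and 52.1 (0.750, 0.581 to 0.971), short of 2-fold.

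Mesenchyme of the lateral plate was represented by 313 barcodes with UMIs of TBX5 and PRRX1 and none of the rule genes (median depth 11760 UMIs). Of 10851 genes compared, 370 (3.41%) were 2-fold or more higher in the members and 711 (6.55%) 2-fold or more lower. Of 25 matrix genes 5 were 2-fold or more higher and 7 lower, and of 12 cartilage genes 4 were higher and 3 lower. The most abundant matrix genes of the members, LUM and COL3A1, stayed inside 2-fold. LUM was at 954 CPM in the members and 876 in the TBX5 PRRX1 cells (1.09-fold, 1.04 to 1.14), COL3A1 at 695 and 790 (0.880, 0.835 to 0.927) and TWIST1 at 141 and 87.0 (1.62-fold, 1.41 to 1.86). COL3A1 changed direction with the members chosen: its log2 ratio of -0.18 was 0.21 with the rule on thinned counts, 0.0025 with the stricter rule of 2 or more UMIs and 0.089 without members holding 2 markers of another class.

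Paraxial regulators and hedgehog genes set them apart. FOXC2 was at 193 and 8.18 CPM (23.6-fold, 16.7 to 34.6), FOXC1 at 99.3 and 4.71, MEOX2 at 94.8 and 1.73, MEOX1 at 68.9 and 5.20, TCF15 at 39.1 and 2.23 and SOX9 at 79.2 and 3.47 (22.8-fold, 13.4 to 42.3). C1QTNF3, a secreted protein of cartilage, was at 221 and 8.92 (24.8-fold, 17.7 to 35.6). PTCH1 was at 137 and 22.6 (6.09-fold, 4.86 to 7.70) and GLI1 at 14.5 and 0.743, and 5 of 10 hedgehog targets and effectors were 2-fold or more higher and 1 was 2-fold or more lower. When barcodes above the 95th percentile of depth were left out, the log2 ratios were larger for GLI1 (6.64 in place of 4.29), MEOX2 (7.40 in place of 5.77), FOXC1 (5.26 in place of 4.40) and FOXC2 (5.28 in place of 4.56). The GLI1 value of 6.64 is set by a pseudocount of 0.5 UMI, since no GLI1 UMI was left in the TBX5 PRRX1 cells.

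On the low side were 7 of 9 compared lateral plate genes, TBX5 of the choice included. GATA5 and RSPO2, a cardiac and visceral factor and a WNT agonist, had 0 UMIs in the members and were at least 41.2-fold and at least 21.6-fold lower. The heart and gut factor HAND1 was at 21.2 and 325 CPM, the WNT antagonist SFRP1 at 121 and 974, DCN, which encodes decorin, at 63.9 and 503, and COL1A1 at 48.8 and 256. BMP4 was at 16.5 and 95.4, and 9 of 15 BMP genes were 2-fold or more lower.

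Presomitic mesoderm, the tissue from which somites form, was represented by 338 barcodes with TBX6 and one of MSGN1, HES7, RIPPLY2 or MESP2 and none of the rule genes (median depth 10737 UMIs). Of 10882 genes compared, 546 (5.02%) were 2-fold or more higher in the members and 775 (7.12%) 2-fold or more lower. Genes that the members held above these cells included TWIST1 at 141 and 6.14 CPM (23.0-fold, 15.3 to 36.2), TGFBI at 248 and 12 (20.6-fold, 15.4 to 28.3), LUM at 954 and 82.4 (11.6-fold, 10.3 to 13), COL3A1 at 695 and 66.8 (10.4-fold, 9.15 to 11.9) and SOX9 at 79.2 and 9.73 (8.15-fold, 5.79 to 11.8). MEOX2 was at 94.8 and 2.30.

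Other paraxial regulators were nearer to each other: FOXC2 at 193 and 103 (1.87-fold, 1.65 to 2.12), MEOX1 at 68.9 and 37.6 (1.83-fold), TCF15 at 39.1 and 20.0 (1.96-fold) and PTCH1 at 137 and 85.5 (1.61-fold, 1.39 to 1.85). The presomitic genes not used to pick the cells were far lower in the members. FGF17 was at 13.7 and 568, FGF3 at 2.23 and 134, WNT8A at 0.558 and 42.0, and T, the brachyury factor, at 2.51 and 123. DLL1 was at 8.09 and 266 and CYP26A1, which degrades retinoic acid, at 16.5 and 282, while ALDH1A2, which makes it, was at 43.0 and 7.68 (5.60-fold, 3.77 to 8.57). SNAI1 was lower in the members at 39.9 and 107, although it was above the PAX3 MEOX1 cells at 14.5. CRABP2 was at 108 in the members and at 872, 990 and 720 in the TBX6, PAX3 MEOX1 and TBX5 PRRX1 cells.

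HOX genes, whose paralogue groups are read out in order from neck to tail, were read in every member. The most posterior group with a UMI was group 4 in 59 members, group 5 in 50, group 9 in 78 and group 10 in 13, and every member held a UMI of at least one HOX gene. Summed over each group and compared with the other barcodes, the members were at a ratio of 0.485 (0.413 to 0.568) for group 1, the most anterior, at 0.898, 0.992, 0.965 and 1.22 for groups 2 to 5, at 0.606 for group 6, and at 0.516, 0.508, 0.412 and 0.544 for groups 7 to 10. Low ratios thus stood at both ends of the series. HOXB4 was at 134 CPM against 102, HOXA9 at 27.6 against 93.0 and HOXC9 at 22.3 against 67.0. Of 9 genes each, groups 4 to 6 had 0 genes 2-fold or more higher and 1 lower, and groups 7 to 9 had 0 higher and 5 lower. Against the PAX3 MEOX1 cells the ratio was 0.483 (0.390 to 0.598) for group 1 and 0.425 (0.373 to 0.482) for group 9. Group 10 went the other way, with 125 UMIs in 19 members and 15 UMIs in the PAX3 MEOX1 cells (4.96-fold, 2.89 to 9.12), and group 11 had 13 and 0 UMIs. The group 10 sum rests in part on 1 barcode. Among members without a SOX9 UMI, it held 73.2% of the UMIs of HOXA10, a gene of this group.

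**Figure D3:**
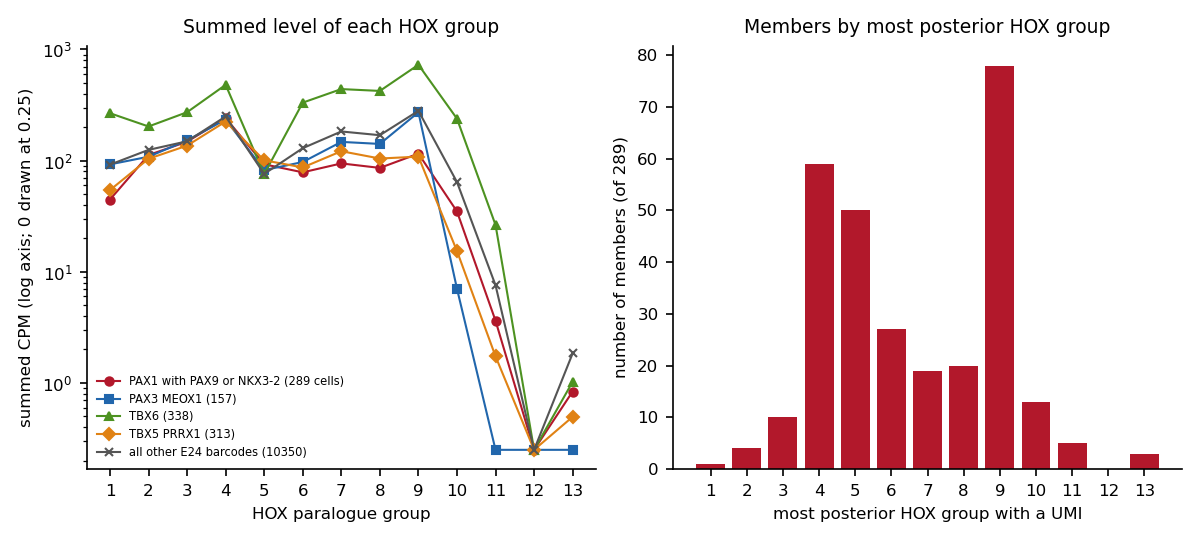
Left: summed CPM (log axis) of each HOX paralogue group in the members and 4 other sets of E24 barcodes; right: number of members whose most posterior HOX group with a UMI is the one shown. Members lie close to the rest, the PAX3 MEOX1 cells and the TBX5 PRRX1 cells for groups 3 and 4 and below the TBX6 cells and the rest for groups 7 to 9, and the right panel has peaks of 59 members at group 4 and 78 at group 9.

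The 138 members with a UMI of HOX groups 7 to 13 were compared with the 151 without one. The former were deeper, with a median of 13025 UMIs against 10350, and the part of depth in what follows was not tested beyond the split on thinned counts. Of 8983 genes compared, 287 (3.19%) were 2-fold or more higher and 90 (1%) 2-fold or more lower in members with posterior HOX UMIs. Of 25 matrix genes 2 were 2-fold or more higher in members with posterior HOX UMIs (COL6A1 and HSPG2) and 2 lower (LUM and DCN), and of 10 cartilage genes 2 were higher and 1 was lower. LUM was at 1464 CPM without posterior HOX UMIs and 519 with them (0.354, 0.329 to 0.381), DCN at 90.3 and 41.4, CXCL12 at 273 and 137, and COL3A1 at 852 and 561 (0.658, 0.608 to 0.713). SOX9 stood at 96.3 and 64.6 (0.671, 0.526 to 0.853) and ALDH1A2 at 58.8 and 29.5. PAX1 at 202 and 140 and NKX3-2 at 94.5 and 64.1 are rule genes: every member must hold PAX1, and NKX3-2 where PAX9 is absent, which sets their CPM in part by depth, and nothing is read from them. SCG3 and PRKCB were at 0.366 and 0.390.

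FOXC2 was at 184 without and 201 with posterior HOX UMIs and TWIST1 at 152 and 132, with intervals that include 1 (0.937 to 1.27 and 0.725 to 1.04). The members with posterior HOX UMIs were higher in CRABP2, at 163 against 43.6 (3.73-fold, 2.88 to 4.89). CDX2, a posterior homeobox gene that acts on HOX genes, had 72 UMIs in them and 0 in the others (at least 20.5-fold). HAPLN1 was at 76.0 against 11.5, a log2 ratio of 2.72 that was 0.85 when the split was made on thinned counts. Segmentation genes rested on few UMIs: RIPPLY1 had 50 against 3 and HES7 40 against 1, with 42.5% of the HES7 UMIs in 1 barcode, and the keratins KRT8, KRT18 and KRT19 were at 12.6-fold, 10.4-fold and 8.76-fold, of which KRT8 and KRT18 took 22.9% and 25.1% of their UMIs from 1 barcode. With the split on thinned counts the log2 ratios of these keratins were 1.94, 2.05 and 1.41, in place of 3.65, 3.38 and 3.13. ID1, at 135 against 69.1, was 1.95-fold (1.56 to 2.46).

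**Figure D4:**
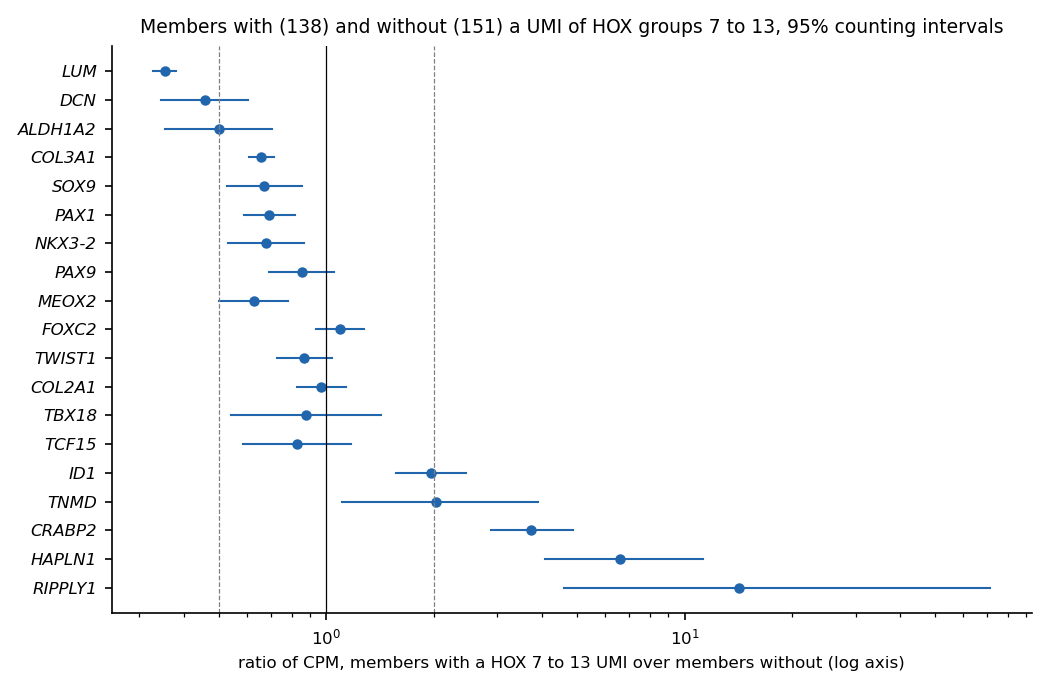
Ratio of CPM (log axis) in the 138 members with a UMI of HOX groups 7 to 13 over the 151 without, with exact 95% counting intervals as lines and dashed lines at 2-fold in either direction. PAX1, PAX9 and NKX3-2 are the genes of the rule. LUM at 0.354 and DCN at 0.458 lie left of the lower dashed line, FOXC2 and TWIST1 have intervals that include 1, and CRABP2, HAPLN1 and RIPPLY1 lie to the right of the upper one.

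The members were also split by single genes. In the 168 members with NKX3-2 against the 121 without, SOX9 was at 94.5 and 57.0 CPM (1.66-fold, 1.28 to 2.17), LUM at 1122 and 709 (1.58-fold, 1.47 to 1.70), DCN at 77.5 and 43.9 and COL3A1 at 753 and 610 (1.23-fold, 1.14 to 1.34). PAX9 was lower in the former, at 84.6 and 132, which the rule builds in, since a member without NKX3-2 must hold PAX9. ID1 was at 74.7 and 148, and HOXA2, at 2.80-fold, was at a log2 ratio of 0.37 in place of 1.48 with the split on thinned counts. HOXA2 was among 3 genes followed in this split that so left the counting interval of their main ratio, while 5 stayed inside. Of 8641 genes compared, 85 (0.984%) were 2-fold or more higher and 95 (1.1%) 2-fold or more lower.

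With SOX9 in place of NKX3-2 as the splitting gene (165 members with it, 124 without), LUM was at 1074 and 775, BMP7 at 30.3 and 16.7 and PTCH1 at 151 and 117 (1.29-fold, 1.07 to 1.56), while the matrix gene TNC was at 8.85 and 23.0 and FST at 199 and 277. NKX3-2 was at 92.2 and 57.1, and a UMI of SOX9 was found in 66.7% of members with NKX3-2 and 43.8% of those without. NKX3-2 is a rule gene that every member without PAX9 must hold, so these values describe the members only. Of 8641 genes 98 (1.13%) were 2-fold or more higher and 87 (1.01%) 2-fold or more lower. Median depth was 12152 UMIs with SOX9 and 10692 without. With the split on thinned counts, 2 of the genes followed left the counting interval of their main ratio and 5 stayed inside.

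Members with TCF15 (101) had FOXC1 at 117 and FOXC2 at 222 against 87.8 and 175 in the 188 without, and CRABP2 at 64.4 against 136. Of the genes of G2 and M phase, CENPF was at 625 in them against 470 (1.33-fold, 1.21 to 1.46) and CCNB1 at 275 against 199 (1.38-fold, 1.20 to 1.59), beside a median depth of 12741 against 10852.5 UMIs. With the split on thinned counts the log2 ratio of CENPF was 0.18 in place of 0.41 and that of CCNB1 was -0.0050 in place of 0.47. These were among 6 genes followed in this split that left the counting interval of their main ratio, while 1 stayed inside. FOXC1, FOXC2 and CRABP2 are therefore given without a claim that they hold at equal depth. Of 8534 genes 67 (0.785%) were 2-fold or more higher and 110 (1.29%) 2-fold or more lower. The 55 members with TBX18 had FRZB, a WNT antagonist of cartilage, at 107 against 63.9 (1.68-fold, 1.29 to 2.18), a log2 ratio of 0.75 that was 0.09 with the split on thinned counts, and FBN2 at 140 against 216, FST at 172 against 248 and TWIST1 at 111 against 150. Of 7056 genes 37 (0.524%) were 2-fold or more higher and 87 (1.23%) 2-fold or more lower. Median depth was 14149 UMIs with TBX18 and 10891.5 without, and the part of depth was not tested beyond the split on thinned counts. There, 3 of the genes followed for TBX18, FRZB among them, left the counting interval of their main ratio and 3 stayed inside. Single barcodes weigh heavily in these splits: of the 60 genes with the largest ratios over the 5 splits, 40 drew more than 25% of their UMIs from 1 barcode, globin and muscle genes such as HBZ, MYLPF and DES among them.

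Few barcodes met the same rule at later stages. They were 16 of 5028 at E28 (0.318%, 0.182 to 0.516) and 22 of 6661 at E31 (0.330%, 0.207 to 0.50), and 0 of 5298 at E37, which allows a share of up to 0.0566% on the floor of 3 counts (exact upper limit 0.0696%). The dissected tissue differs between stages, so stage and tissue cannot be told apart, and groups of 16 and 22 cells give wide intervals. The rule sets the levels of its own genes in part, and nothing is read from them: PAX1 was at 169, 123 and 151 CPM in the E24, E28 and E31 barcodes that met it, PAX9 at 104, 117 and 106 and NKX3-2 at 78.1, 10.7 and 20.4. Of these barcodes 121 of 289, 14 of 16 and 17 of 22 met the rule through PAX9 without NKX3-2. SOX9 was at 79.2, 181 and 119, COL2A1 at 177, 251 and 245, FOXC2 at 193, 331 and 155 and TWIST1 at 141, 144 and 69.5.

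Against the E24 members, 79 of 2674 genes (2.95%) were 2-fold or more higher and 235 (8.79%) 2-fold or more lower at E28. At E31 they were 59 (1.76%) and 147 (4.39%) of 3351. LUM, at 954 in the E24 members, was at 26.7 at E28 (35.8-fold lower, with the interval starting at 15.3) and 32.7 at E31, and the level over all barcodes of each library was 449, 14.8 and 10.9. FST was at 230, 37.3 and 32.7 with library levels of 110, 13.9 and 24.4, and DCN at 63.9, 0 and 4.09 with library levels of 101, 9.65 and 3.03. MEOX1 had 0 UMIs in the E28 barcodes, at least 4.31-fold lower, and was at 16.4 at E31, with library levels of 35.6, 27.7 and 20.3.

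VCAN, the proteoglycan versican, was at 191, 912 and 528 CPM, with library levels of 142, 384 and 319. The BMP-responsive ID1 was at 105, 416 and 397, with library levels of 256, 360 and 399, and COL1A1 at 48.8, 341 and 49.1. The immediate early genes FOS and JUN were at 688 and 816 at E28 against 22.6 and 60.3 in the E24 members (30.5-fold, 22.9 to 40.7 and 13.5-fold, 10.9 to 16.7), and their levels over all E28 barcodes, 404 and 263, were likewise above those of the E24 library, 70.1 and 50.9. The part of dissociation in this was not tested. At E28, 1 barcode held more than 25% of the FOS UMIs, and 1 barcode more than 25% of the COL1A1 UMIs. For LUM, DCN, FST, VCAN, ID1, FOS and JUN the order between E24 and E28 in the rule's barcodes was also that of the whole libraries.

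**Figure D5:**
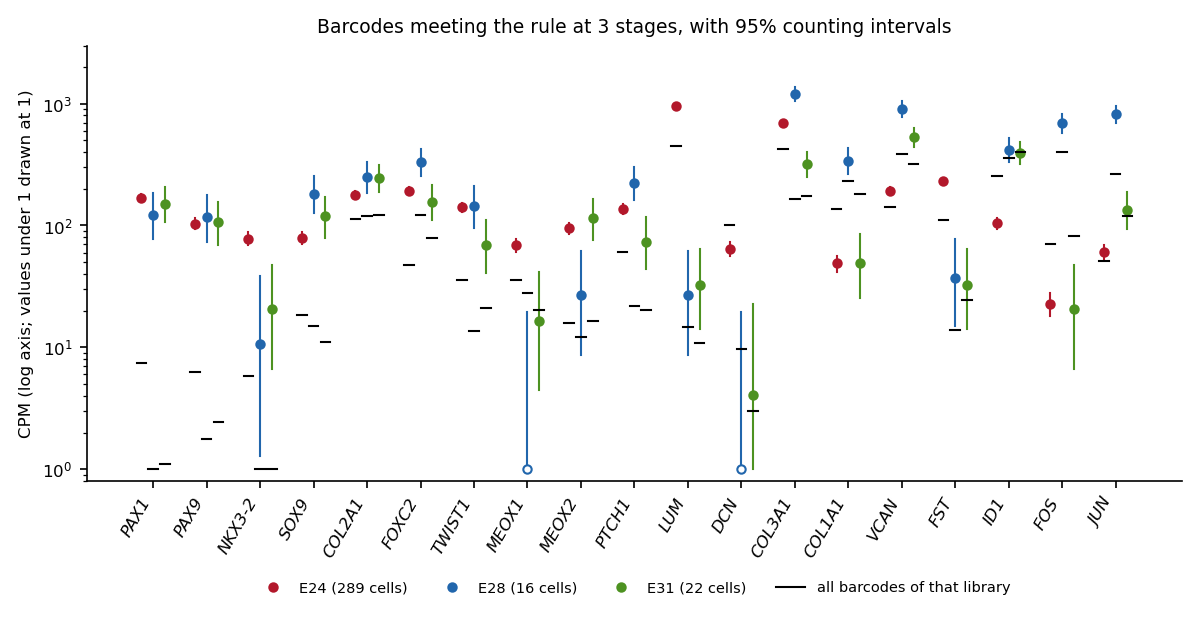
CPM (log axis) of named genes in the barcodes that met the rule at E24 (289), E28 (16) and E31 (22), with exact Poisson 95% intervals, open symbols for 0 UMIs and black bars for the level over all barcodes of that library. The first 3 genes are those of the rule, LUM and FST are highest at E24, and the black bars of LUM, FOS and JUN move in the same direction as the points between E24 and E28.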

How the data were processed

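The deposited files hold UMI counts per gene and barcode, which the authors made with Cell Ranger 2.1.0, per the submitters' processing notes. Which genome build and annotation they used is not stated in the sources used here. The labels' protocols name kits of more than 1 chemistry version. The files list 26223 genes, 1 row without a name held 0 UMIs and was left out, and 673 of 9499 LOC rows were given RefSeq symbols. No barcode was filtered further, no cells were clustered and no doublet caller was run; members with 2 or more markers of another class were left out as an alternative. Counts were summed over the barcodes of a group and divided by the group's total UMIs to give CPM. Intervals are exact and at 95%: conditional binomial for ratios, Poisson for levels and binomial (Clopper-Pearson) for shares. A gene was compared where 10 or more UMIs were expected in the smaller group at equal levels, and a gene was called at 2-fold or more. Against a sum of 0 the ratio is a bound from a floor of 3 UMIs over the group. Log2 ratios with a sum of 0 instead have a pseudocount of 0.5 UMI added to both sums. For shares, barcodes were thinned to 3500 UMIs. Members and the 32 gene lists (349 of 354 genes found) were chosen with earlier results of these data known. Beside list genes, the text names genes by the interval bound nearest 1, up to 12 in each direction against the rest and fewer elsewhere, with a symbol, 50 or more UMIs in the higher group and no ribosomal role. Python 3.11.15, numpy 2.4.6, scipy 1.17.1, pandas 2.3.3 and matplotlib 3.10.9 were used, and the ratio calculation was tested on simulated data. Values of some genes are not reported here, though list counts include every listed gene.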

Additional observations from a re-analysis of the deposited data

How the results depend on the processing

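No paired analysis was possible because each stage is 1 library. Fewer genes can be compared in smaller groups, so counts of genes 2-fold or more higher or lower rest on different numbers of genes. Not every count fell with the number compared. Genes lower against the PAX3 MEOX1 cells were 271 of 9654 with all members and 426 of 8539 without members holding 2 markers of another class. Without the filter on low counts, 21547 genes were compared against the rest, in place of 11338. With the rule on counts thinned to 3500 UMIs, 86, 3 and 4 barcodes met it at E24, E28 and E31, with 74 genes higher and 549 lower against the rest, 140, 123 and 191 higher against the PAX3 MEOX1, TBX5 PRRX1 and TBX6 cells, 10 higher and 64 lower at E28, and 5 and 41 at E31. With 2 or more UMIs asked of PAX1 and of PAX9 or NKX3-2, the numbers were 91, 2 and 5 barcodes, 80 and 681 genes against the rest, 198, 163 and 256 higher against the 3 classes, 13 and 49 at E28, and 9 and 72 at E31. Without the 152 members that held 2 markers of another class, 426 genes were lower against the PAX3 MEOX1 cells, and 198 and 298 higher against the TBX5 PRRX1 and TBX6 cells. Without the filter on low counts, genes higher and lower were 4341 and 2890 against the rest, 1497 and 1948 against the PAX3 MEOX1, 2217 and 2811 against the TBX5 PRRX1 and 2352 and 2948 against the TBX6 cells, and 2189 and 1880, 2807 and 1489, 1673 and 1272, 2317 and 1747, and 1618 and 1427 for the NKX3-2, HOX, TCF15, SOX9 and TBX18 splits. With splits on thinned counts they were 27 and 147 for NKX3-2 and 10 and 46 for TBX18, with 182 higher for HOX, 10 for TCF15 and 9 for SOX9. Leaving out barcodes above the 95th percentile of depth gave 40 higher for TCF15 and 12 for TBX18. The mean of each barcode's CPM gave 147 lower for HOX and 58 higher for TBX18. Leaving out each gene's top barcode, chosen after seeing the data, gave 39 lower for NKX3-2, 59 lower for HOX, 27 higher for TCF15, 63 higher and 42 lower for SOX9, and 19 higher for TBX18. Of 60 genes chosen by size over the 5 splits, 8 changed direction without their top barcode, among them DES (4.17-fold to 0.949 for NKX3-2, 0.187 to 1.23 for SOX9). HBZ and HBE1 changed direction against the other classes under other alternatives. The log2 ratio of HBZ against the PAX3 MEOX1 cells was -0.37 with the thinned rule, -0.89 without members holding 2 other markers, -0.062 without the deepest barcodes and -0.0090 without globin-rich barcodes, an alternative also chosen after seeing the data. In the same order it was -0.56, -1.08, -0.22 and -0.20 against the TBX5 PRRX1 cells, and -0.52, -1.03, -0.093 and -0.16 against the TBX6 cells. Without members holding 2 other markers HBE1 was at -0.69, -0.68 and -0.81 against the 3 classes, and against the TBX6 cells at -0.10 without the deepest and -0.081 without globin-rich barcodes.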
